A study of Mus musculus with 36 samples.

Results

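Il17rc encodes a chain of the receptor that binds IL-17A and IL-17F, cytokines of mucosal defence. It lies on mouse chromosome 6 among closely packed genes of unrelated function. Of these neighbours 10 were listed by name because they lie close to Il17rc, though not every gene of the interval is among them: Camk1, Tada3, Arpc4, Ttll3, Rpusd3, Cidec and Jagn1 before Il17rc, and Creld1, Brk1 and Vhl after it, in the order of increasing coordinates. Each gene was represented by its brightest probe set, the one with the highest mean over all 36 arrays. That gave values for 9 of the 10 neighbours, out of 17097 genes tested. No probe set in the table used here was named for Cidec, which encodes a lipid droplet protein. The question was whether genes that sit beside the disrupted Il17rc differ between mice that lack it and wild-type mice.

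Colons of wild-type mice (WT) and Il17rc knockout mice (KO), all described as 6 to 8 weeks old, were profiled on Affymetrix HT MG-430 PM arrays at 4 stages. Untreated colons gave 4 arrays per genotype. The other mice were on a protocol of the carcinogen azoxymethane (AOM) and then 3% dextran sulfate sodium (DSS) in the drinking water. The full protocol had 3 DSS cycles, each of 5 days followed by 14 days of plain water. From the treated mice, 4 arrays per genotype came from day 7, 4 from day 15 and 6 from tumors at day 63. Counted from the start of the protocol, days 7 and 15 come before 3 such cycles could be complete. The labels give no strain background, no design of the disrupted allele, and no statement on whether WT and KO mice were littermates, so an effect of the mutation, of the DNA linked to it and of a difference between colonies cannot be told apart. Nothing in the labels says that each array came from a different mouse, so p-values reflect only the scatter of these samples, which may be technical.

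A gene-targeted allele can change more than the gene it was made for. Transcription of the nearest genes can be altered by the inserted or deleted DNA, and DNA of the strain in which the allele was made stays linked to it through breeding. Neighbours of a targeted gene are therefore a common control in knockout mice. The neighbours studied here have separate roles. Creld1 encodes a membrane protein of the endoplasmic reticulum (ER) known for its part in heart valve and septum development, and Jagn1 an ER protein needed by neutrophils. Arpc4 and Brk1 are subunits of the Arp2/3 and WAVE complexes that build branched actin, Vhl is the substrate receptor of the ubiquitin ligase that marks HIF proteins for degradation, and Tada3 is a subunit of the SAGA and ATAC acetyltransferase complexes. Camk1 is a calcium/calmodulin-dependent kinase, Ttll3 a tubulin glycylase of cilia, and Rpusd3 a mitochondrial pseudouridine synthase.

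Distances were taken from the RefSeq annotation of GRCm38.p6. From Camk1 to Vhl, 16 coding genes lay within 297.5 kb, of which 15 were measured. Creld1 is the next coding gene after Il17rc, and the gap between the annotated genes was 192 bases. Il17re, another receptor gene of the IL-17 family, is the next one before it, with a gap of 0.696 kb. Jagn1 lay 23.2 kb away, Rpusd3 52.1 kb, Ttll3 56.9 kb, Arpc4 81.0 kb, Tada3 93.6 kb, Brk1 121.6 kb, Camk1 127.5 kb and Vhl 140.8 kb.

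The DNA between Il17rc and Creld1 is shown because, of the listed neighbours, Creld1 was the one whose array signal, from 1 probe set, differed between genotypes. Il17re, next to Il17rc on the other side and not among those listed, was also lower in KO. The sequence shown is that on the Creld1 side. It is the whole 192-base gap at chr6:113483164-113483355 of GRCm38.p6, plus strand, from RefSeq, in the direction of Il17rc and Creld1. Capitals mark a CCAAT match and a GC-box match, both on the reverse strand.

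Il17rc-Creld1 gap: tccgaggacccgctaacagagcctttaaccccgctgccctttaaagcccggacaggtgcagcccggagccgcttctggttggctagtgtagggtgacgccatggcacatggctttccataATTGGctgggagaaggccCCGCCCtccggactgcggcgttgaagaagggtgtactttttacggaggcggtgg

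The gap had 60.9% G and C and 13 CpG dinucleotides, against a median of 53.1% and 5 in 32851 RefSeq promoter windows of the same length. Of those windows, 73.8% had fewer CpG dinucleotides. The GC box (GGGCGG) began 54 bases before the annotated start of Creld1 and the CCAAT box (CCAAT) 72 bases before it. On either strand, GGGCGG occurred in 30.8% of the windows, CCAAT in 28.6% and TATAAA, which had no match in the gap, in 9.6%. These matches describe the letters of the sequence and are not evidence of binding.

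Intensities were whole numbers from 4 to 14185, and the array medians lay between 14 and 16. Il17rc read 76 to 515 on the WT arrays and 7 to 15 on the KO arrays, except for the arrays labelled KO day 7 replicates 1 and 2, which read 331 and 44. These 2 arrays were among 7 with an intensity above 100 for Krt5, a keratin of squamous epithelium. The remaining 5 were replicates 1 and 4 of untreated WT, replicates 1 and 4 of WT at day 7, and replicate 2 of the KO tumors. A further KO tumor array, replicate 4, read 139 for the Y-linked gene Eif2s3y, against 7 to 11 on all other arrays. Of the 9 colonocyte markers listed, all 9 were measured, with sums of 13551 to 34101 per array. Fewer cells of a type and less RNA per cell cannot be told apart in such whole-tissue samples.

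The Creld1 signal was lower in KO than in WT. It came from the only probe set assigned to Creld1 alone, so no second set could be compared. Untreated WT arrays read 46, 54, 41 and 47, and untreated KO arrays read 27, 29, 31 and 26, so the groups did not overlap. At day 7 the WT arrays read 52, 48, 49 and 45 and the KO arrays 31, 29, 29 and 30, again without overlap. Such separation with KO lower was seen in 3.66% of all genes in untreated colons and in 2.43% at day 7.

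At day 15 the Creld1 intensities spread widely within each genotype. WT replicates 1 to 4 read 56, 40, 31 and 75, and KO replicates 1 to 4 read 40, 27, 21 and 42. The ranges overlapped. The labels state no pairing, but by replicate number KO was lower in 4 of 4 pairs, at 71.4, 67.5, 67.7 and 56.0% of the WT value. Jagn1 and Il17re were also lower in 4 of 4 such pairs, and Brk1 and Tada3 in 0 of 4. The share over all genes was not counted. Same-numbered arrays deviated together at this stage. In tumors WT arrays read 110, 77, 72, 74, 92 and 61 and KO arrays 55, 51, 57, 58, 59 and 66. The ranges overlapped, since the highest KO tumor at 66 lay above the lowest WT tumor at 61. The other 5 KO tumors lay below all WT tumors by a small margin, 59 against 61. The share of all genes with such a pattern was not counted.

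**Figure D1:**
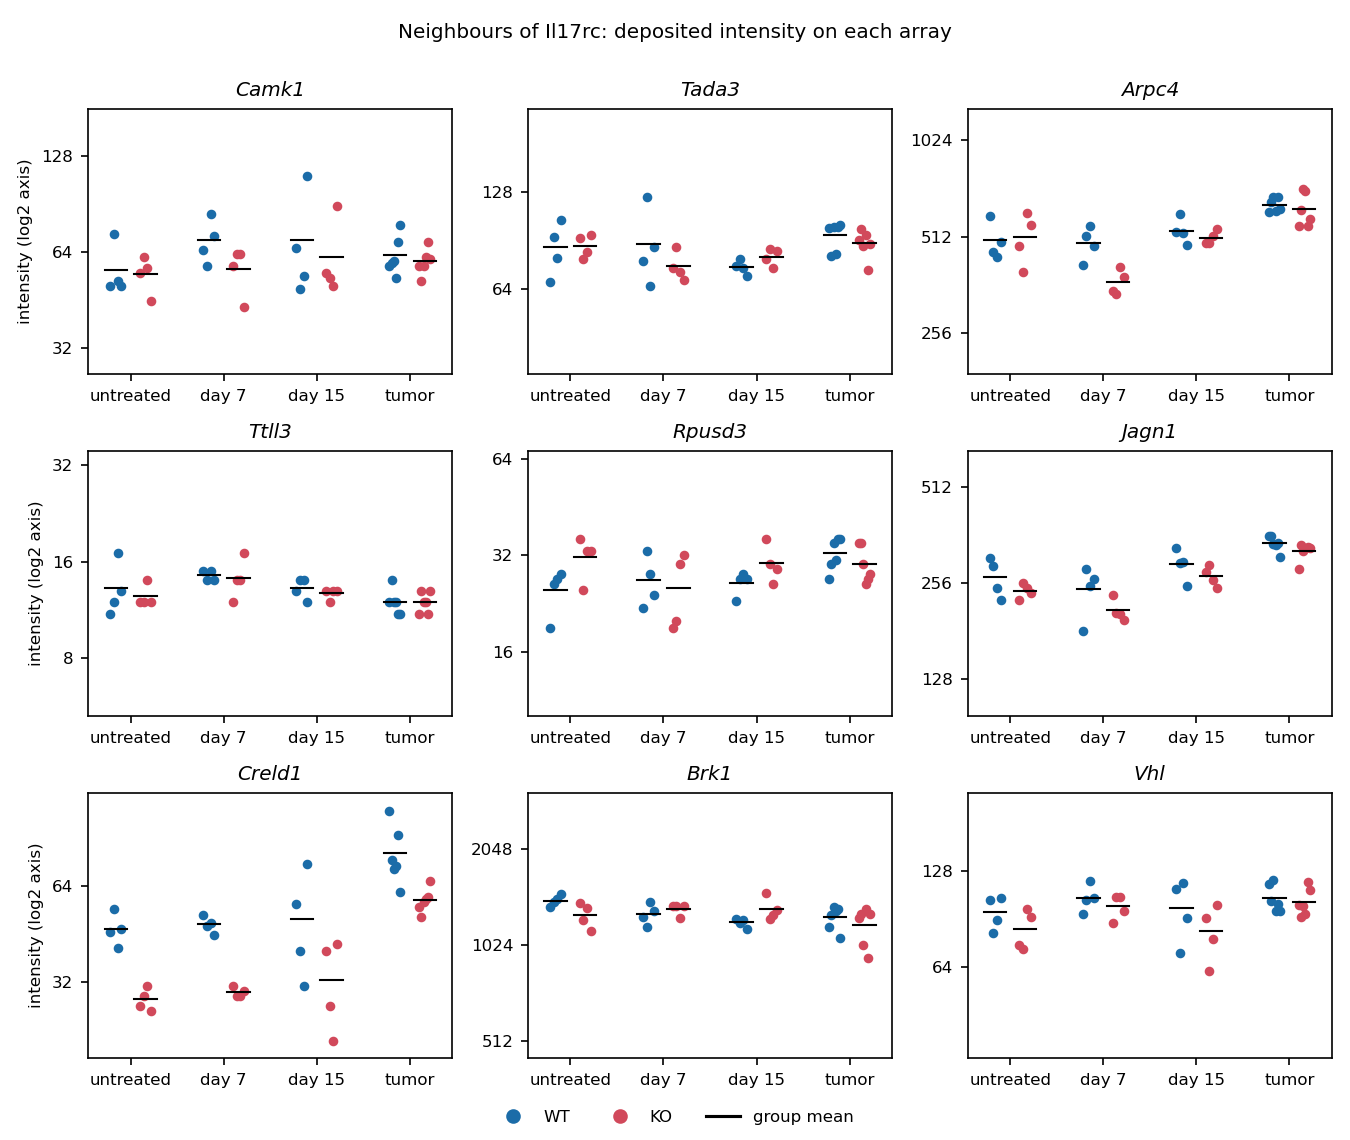
Deposited intensity (log2 axis) of the 9 measured neighbours on each array, by stage and genotype. Points are single arrays (4 per group, 6 for tumors) and black lines are group means. Every panel spans the same ratio from bottom to top. WT and KO points of Creld1 separate untreated, at 41 to 54 against 26 to 31, and at day 7, at 45 to 52 against 29 to 31. Those of Arpc4 separate at day 7, at 417 to 552 against 338 to 412.

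The mean Creld1 intensity was 47.0 ± 5.35 (SD, n = 4) in untreated WT and 28.2 ± 2.22 (n = 4) in untreated KO. It was 48.5 ± 2.89 and 29.8 ± 0.957 at day 7, 50.5 ± 19.3 and 32.5 ± 10.1 at day 15, and 81.0 ± 17.4 and 57.7 ± 4.97 (n = 6 each) in tumors. KO means were thus 0.601, 0.613, 0.644 and 0.712 of the WT means. Differences were tested with limma on log2(intensity + 1) after quantile normalization, with Benjamini-Hochberg adjustment over all genes in each comparison and a threshold of 0.05. In these units KO minus WT was -0.65 ± 0.17 (SE) untreated (adjusted p = 0.0340), -0.79 ± 0.17 at day 7 (adjusted p = 0.0320) and -0.74 ± 0.17 at day 15 (adjusted p = 0.0554). In tumors it was -0.46 ± 0.14, with an unadjusted limma p of 0.00238 that did not pass adjustment (adjusted p = 0.9999).

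Averaged over the stages with equal weight, the KO minus WT difference of Creld1 was -0.66 ± 0.08 (95% interval -0.82 to -0.49, limma adjusted p = 6.78e-06). The genotype-by-stage interaction did not pass the threshold (limma F, adjusted p = 0.790), so a change of the difference between stages was not detected. Across all genes 1.06% passed that test. Of the 17097 genes, 1.42% passed the threshold for the mean of the stages and 0.31% did so with KO lower. In untreated colons 2.28% passed, 0.485% with KO lower, and at day 7 0.298% and 0.211%.

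The difference over the stages passed the threshold without any single one of the 36 arrays, with a range of -0.69 to -0.62. The single-stage calls did not. The untreated call was lost when any array of that stage other than WT replicate 3 was left out (adjusted p up to 0.115). The day 7 call was lost without any array of that stage other than WT replicate 1 and KO replicate 1 (up to 0.178), and at day 15 the call was gained without WT replicate 3 (adjusted p = 0.0290). With the replicate number as a block, the adjusted p was 0.0584 at day 7 and 0.0828 at day 15.

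Creld1 did not follow Il17rc on the 2 KO day 7 arrays with more Il17rc signal than the other KO arrays. The WT arrays read 76 or more for Il17rc, and 340 or more at day 7. The array labelled KO day 7 replicate 1, with Il17rc at 331, read 31 for Creld1, and replicate 2, with Il17rc at 44, read 29. The other KO arrays of that day read 29 and 30. Without both arrays the day 7 difference was -0.84 (adjusted p = 0.0738) and the mean of the stages -0.67 (adjusted p = 3.60e-05).

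**Figure D2:**
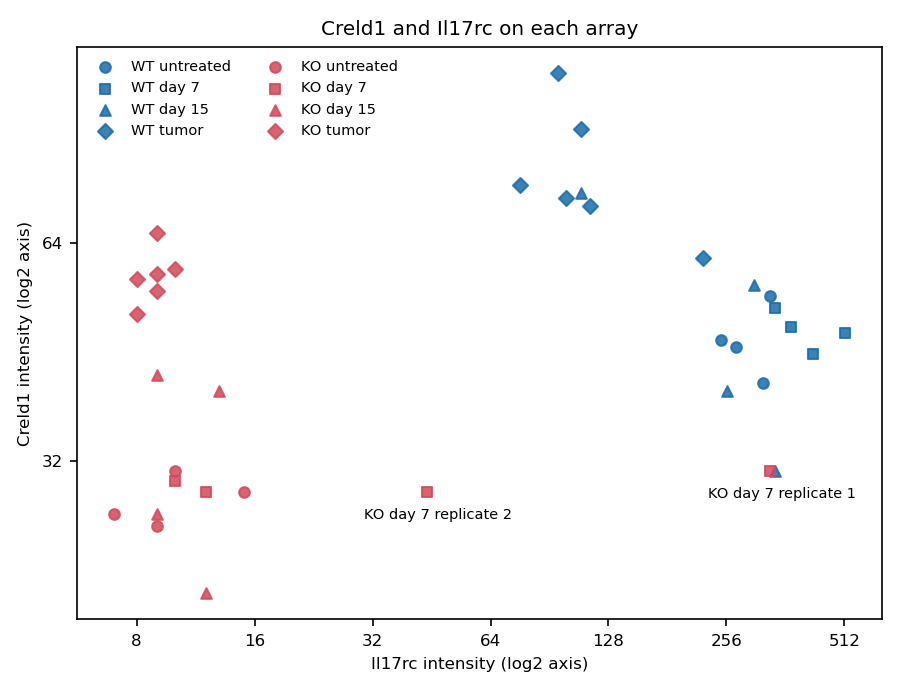
Creld1 intensity against Il17rc intensity on each of the 36 arrays, both on log2 axes, with colour for genotype and shape for stage. KO day 7 replicate 1 lies among the WT arrays for Il17rc (331) but at 31 for Creld1, beside the other KO day 7 arrays.

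Markers of other cell types differed between single arrays. The summed intensity of the 7 measured squamous markers was 82 to 33978 in untreated WT and 94 to 193 in untreated KO, and their median difference was -3.31 with wide scatter (0 of 7 past the limma threshold, 4 of 7 with an unadjusted p below 0.05). The WT untreated arrays with high Krt5 read 46 and 47 for Creld1 and the other WT untreated arrays 54 and 41. Without the 7 arrays with high Krt5, the Creld1 difference was -0.68 over the stages (limma adjusted p = 0.00129), -0.67 untreated (adjusted p = 0.218) and -0.86 at day 7 (adjusted p = 0.0827). Of the 5 measured T and B cell markers, 2 were higher in untreated KO (sums of 92 to 550 against 63 to 68 in WT), and their part in the result was not tested.

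Il17re, on the other side of Il17rc, was lower in KO over the stages (-0.66 ± 0.11, limma adjusted p = 0.000638), with differences of -1.03 in untreated colons, -0.51 and -0.99 on days 7 and 15, and -0.10 between tumors. The array labelled KO day 7 replicate 1 read 221 for Il17re, within the WT range of 187 to 261 on that day, and the other KO day 7 arrays read 121 to 140. Without it the day 7 difference was -0.71 (limma adjusted p = 0.142). At day 15 the adjusted p was 0.0554, and 0.0342 with the replicate number as a block. A second, dimmer Il17re probe set gave -0.33 (adjusted p = 0.204).

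Jagn1, the next of the listed genes by distance, was -0.14 ± 0.05 in KO over the stages and did not pass adjustment (limma adjusted p = 0.247). Untreated WT arrays had a mean of 267.5 ± 37.5 (SD, n = 4) and KO arrays 242.2 ± 12.9, and the ranges of 226 to 307 and 226 to 256 overlapped. At day 7 the means were 244.8 ± 44.7 and 210.8 ± 16.9, at day 15 293.5 ± 32.1 and 269.5 ± 19.4, and in tumors 341.0 ± 18.3 and 322.7 ± 19.5 (n = 6 each). Jagn1 was thus below WT in mean at each stage, with differences between -0.20 and -0.09 and overlapping ranges. Array weights brought the difference over the stages past the threshold (-0.18, adjusted p = 0.0111).

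Among the actin regulators, Arpc4 read 417 to 552 in WT and 338 to 412 in KO at day 7, without overlap, a separation seen with KO lower in 2.43% of all genes. Its difference there was -0.38 ± 0.12 (limma adjusted p = 0.162). A second Arpc4 probe set gave 0.03 at that stage, and the brighter set gave 0.01 untreated, -0.11 at day 15 and -0.06 in tumors. Brk1 was the brightest neighbour, at 932 to 1486 over all arrays. Its differences were -0.18 in untreated colons, 0.09 on both day 7 and day 15, and -0.10 between tumors, and the mean of the stages was -0.02 ± 0.05. The 95% interval for this probe set was -0.12 to 0.07. A second, dimmer Brk1 probe set gave -0.25 ± 0.09 at day 7 (limma adjusted p = 0.257) and -0.09 over the stages.

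Vhl read 82 to 105 in untreated WT and 73 to 97 in untreated KO. The difference was -0.35 ± 0.14 at day 15 and -0.17 ± 0.07 over the stages (limma adjusted p = 0.362 and 0.328), and the dimmer Vhl probe set gave 0.01 at day 15, -0.49 at day 7 (adjusted p = 0.303) and -0.18 over the stages. Camk1 was -0.17 ± 0.09 over the stages (adjusted p = 0.503), with -0.35 at day 7 and -0.30 at day 15. A second Camk1 probe set gave -0.19 over the stages, -0.50 at day 7 and -0.08 at day 15. Tada3 was -0.08 ± 0.07 over the stages and read 65 to 124 on all arrays. A second Tada3 probe set, near background at a mean intensity of 10.3, gave 0.11 over the stages (limma adjusted p = 0.446).

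Rpusd3 had the highest signed difference of the neighbours in untreated colons. Untreated WT arrays read 19 to 28 and KO arrays 25 to 36, a difference of 0.39 ± 0.17 (limma adjusted p = 0.305). The later stages gave -0.18, 0.08 and -0.10, and the mean was 0.05 ± 0.08. Ttll3 read 11 to 17 on all arrays, a range close to the array medians. Markers of ciliated cells, in which glycylated tubulin is found, summed to 46 to 64 over 5 genes on every array. The Ttll3 differences lay between -0.06 and 0.00.

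In untreated colons 1 of the 9 measured neighbours passed the threshold (Creld1), as at day 7. None passed at day 15 or in the tumors, where 2 (Creld1 and Vhl) and 1 (Creld1) had an unadjusted limma p below 0.05. At day 15, 38 genes of the whole table passed (0.222%), and 10.1% had an unadjusted limma p below 0.05. In tumors 9 genes passed (0.0526%), with 2.47% below 0.05 unadjusted. By unadjusted p below 0.05 it was 2 of 9 in untreated colons (Creld1 and Rpusd3), 2 of 9 at day 7 (Creld1 and Arpc4), and 4 of 9 for the mean of the stages (Creld1, Jagn1, Vhl and Arpc4), where 12.8, 11.5 and 10.8% of all genes did so. Creld1, Jagn1 and Vhl, 3 of 9, were below 0 at all 4 stages, as were 6.73% of all genes. Differences below 0 were found in 5 of 9 neighbours in untreated colons, 8 of 9 on day 7, 7 of 9 on day 15, 8 of 9 between tumors and 8 of 9 for the mean of the stages. Of all genes, 49.2, 50.1, 52.9 and 49.6% were below 0 at the 4 stages and 51.3% for the mean. The neighbours' median difference was -0.05, -0.20, -0.11 and -0.09 at the 4 stages and -0.13 for their mean. The median of all genes lay between -0.01 and 0.00 in each of these comparisons. These counts and medians describe the list.

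The other 4 measured coding genes between Camk1 and Vhl that lie after Il17rc also did not pass, and are named here outside the naming rule. Over the stages the differences were 0.03 for Prrt3 and -0.07 for Emc3, a subunit of the ER membrane protein insertase. They were 0.04 for Fancd2, a DNA crosslink repair gene, and 0.00 for Fancd2os. Emc3 had a mean intensity of 579.8. Prrt3 at 14.5, Fancd2 at 18.2 and Fancd2os at 9.72 were near or below the array medians of 14 to 16, so their differences say little.

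Further out, calls were counted over distance from the start of Il17rc. Within 1 Mb, 2 of 31 measured genes passed for the mean of the stages (6.45%), namely Il17re and Creld1. Within 5 Mb it was 6 of 73 (8.22%), within 10 Mb 9 of 133 (6.77%) and within 20 Mb 11 of 273 (4.03%). All of chromosome 6 had 21 of 941 (2.23%) and all genes 1.42%. Single chromosomes ranged from 0.336% for X to 2.64% for chromosome 19. At the single stages the share within 20 Mb was 2.56% untreated and 0.733% at day 7, where 2.28 and 0.298% of all genes passed. It was 0% at day 15 and in tumors, where 0.222 and 0.0526% of all genes passed. Of the 6 within 5 Mb, 5 lay after Il17rc, where 48 genes were measured, and 1 before it, among 25. Without KO day 7 replicate 3 the count within 20 Mb was 7, and without the 7 arrays with high Krt5 it was 6 within 20 Mb and 5 within 10 Mb.

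The calls beyond the nearest genes went in both directions. Usp18, an interferon-induced protease, was higher by 1.11 ± 0.24 at 7.77 Mb. It averaged 13 ± 6.68 in untreated WT and 105.8 ± 63.2 in untreated KO (SD, n = 4 each), but 17 and 13 at day 7. Tapbpl, a peptide-loading factor of MHC class I, was higher by 0.56 ± 0.12 at 11.8 Mb. Eif4e3, a cap-binding protein, was higher by 0.48 ± 0.12 on the other side, at -13.8 Mb.

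Wnt5b, a Wnt ligand, was lower at 6.07 Mb (-0.55 ± 0.09, limma adjusted p = 0.000374). WT and KO means were 22.8 and 18.8 untreated, 26 and 17.2 at day 7, 37.2 and 20.8 at day 15 and 27.7 and 18.7 in tumors. The KO arrays read 15 to 24 for Wnt5b, near the array medians of 14 to 16, which limits the size of its difference. The zinc finger gene Zfp9 was also lower, with a difference of -0.52 ± 0.12 at 4.99 Mb, as were the Polycomb gene Phc1 with -0.26 ± 0.06 at 8.87 Mb and the ubiquitin ligase gene Marchf8 with -0.23 ± 0.06 at 2.87 Mb. Marchf8 fell outside the naming rule and was named after its value was seen. The DNA glycosylase gene Mbd4 was higher by 0.24 ± 0.06 at 2.38 Mb, with a mean intensity of 15.2 near the array medians. Washc2, likewise outside the rule, was higher by 0.22 ± 0.05 at 2.74 Mb. It is a subunit of the WASH complex on endosomes.

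**Figure D3:**
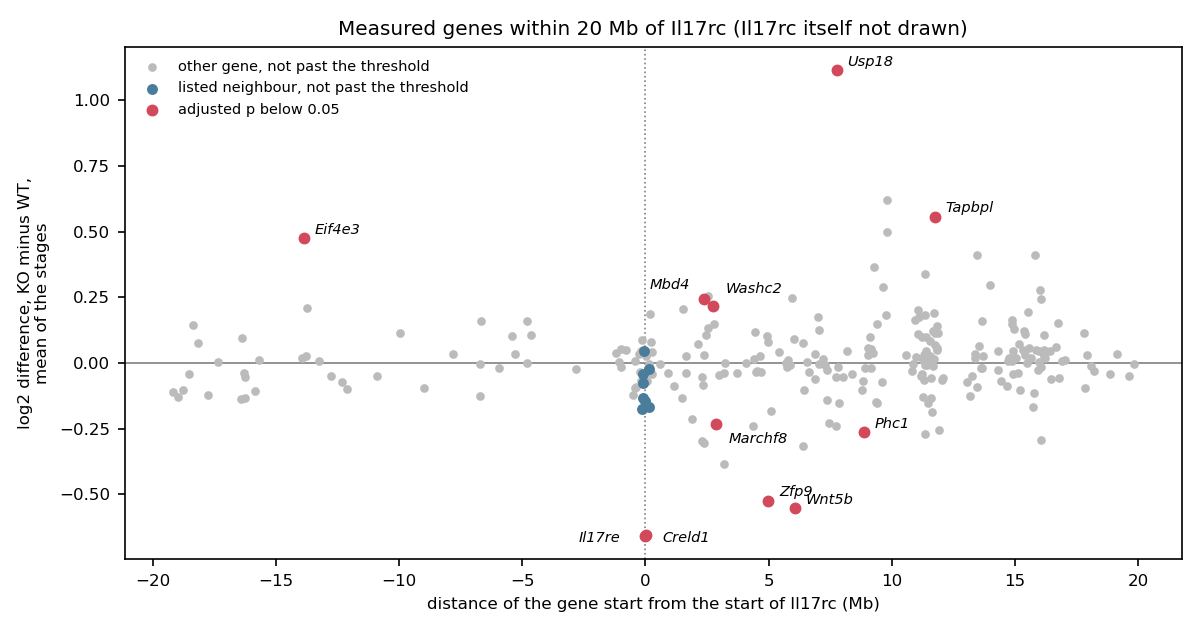
KO minus WT log2 difference as the mean of the stages for 273 measured genes of chromosome 6, by distance of the gene start from the start of Il17rc in Mb. Red points passed an adjusted p of 0.05 (11 genes), and blue points are listed neighbours that did not. Creld1 and Il17re share the lowest position, at -0.66.

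Genes whose log2 intensity was most like that of Creld1 were sought over the 36 arrays. The highest Pearson correlations were with Ift122 (0.83), Ceacam12 (0.79) and Zfp637 (0.78), a description over arrays that share stages and genotypes. Ift122 and Zfp637 also lie on chromosome 6, 2.38 and 4.37 Mb after Il17rc, and Ceacam12 on chromosome 7. Over the stages Ift122, a ciliary transport gene, was -0.31 ± 0.09 (limma adjusted p = 0.120), Zfp637 -0.24 ± 0.08 (adjusted p = 0.154) and Ceacam12 -0.66 (adjusted p = 0.00541).

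Over the course of the protocol, as the mean of both genotypes, 3 of the neighbours were higher in tumors. Against untreated colons, Creld1 was higher in tumors by 0.84 ± 0.11 (limma adjusted p = 3.82e-07), Jagn1 by 0.39 ± 0.07 (adjusted p = 7.12e-05) and Arpc4 by 0.36 ± 0.08 (adjusted p = 0.000365). Thus 3 of 9 were higher and 0 lower, where 33.1% of all genes passed and 18.3% were higher. Markers of several cell types moved between the same stages. In WT the median summed intensity went from 16195 in untreated colons to 4998.5 in tumors for the 5 measured smooth muscle markers, from 29799 to 17341.5 for the 9 colonocyte markers and from 165 to 4126.5 for the 5 measured neutrophil markers. In KO it went from 12480.5 to 6654.5, from 29576 to 18479 and from 72 to 3222. Their part in the tumor differences of the neighbours was not tested. The other 6 lay between -0.13 for Brk1 and 0.19 for Vhl. At day 7 and day 15, 0 of 9 passed against untreated in limma, where 9.04 and 8.18% of all genes did. By unadjusted p below 0.05 it was 3 of 9 at day 7 (Camk1, Vhl and Arpc4) and 1 of 9 at day 15 (Tada3), with 22.7 and 23.3% of all genes. The lowest adjusted p among them was 0.0661, for Vhl at day 7 (0.29 ± 0.10).

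Partners of the neighbours were described from 11 lists. In KO against WT at the single stages, the calls outside Creld1 were Egln1 and the HIF target Adm, which encodes adrenomedullin. Egln1, the prolyl hydroxylase that marks HIF for Vhl, was higher by 0.45 ± 0.09 at day 7 (limma adjusted p = 0.0112). It was 1 of 12 measured genes of its list, and 0.298% of all genes passed at that stage. The Egln1 difference was -0.21 in untreated colons (adjusted p = 0.282) and -0.09 between tumors. Adm was lower in untreated KO (-1.02 ± 0.25, adjusted p = 0.0183), where 2.28% of all genes passed. Adm was the 1 of 16 measured HIF targets that passed at any stage, and the medians over the 16 were 0.07, 0.20, 0.04 and -0.03. Creld1's own list, the CRELD family with ER chaperones, had 10 measured genes, and Creld1 alone passed.

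In tumors against untreated colons the same 10 genes all passed and were higher, with a median of 0.59 against 0.01 for all genes, of which 18.3% were higher. The smooth muscle, colonocyte and neutrophil sums given above moved with this comparison, and their part in it was not tested. Creld1 is one of them. The ER stress factor Manf rose by 0.59 ± 0.09, and, named after their values were seen, Creld2 by 0.78 ± 0.14, the disulfide isomerase gene Pdia6 by 0.72 ± 0.14 and the chaperone gene Hspa5 by 0.46 ± 0.09. At day 7, also as the mean of both genotypes, Sdf2l1 was lower than in untreated colons by 0.80 and Manf by 0.34. At day 15 Hsp90b1 was higher by 0.38 and Manf by 0.36. KO minus WT for Sdf2l1 was 0.79 ± 0.23 untreated and -0.94 ± 0.23 at day 7 (limma adjusted p = 0.0589 and 0.0605). Its mean over the genotypes thus joins genotype differences of opposite sign at these stages.

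Of all genes, 18.3% were higher and 14.8% lower in tumors, beside which the other partner lists are counted. Of 16 HIF targets 6 were lower and 0 higher, among them Pdk1 (-0.83 ± 0.14) and Aldoa (-0.28 ± 0.06). Of 22 SAGA and ATAC subunits 8 were higher, led by the deubiquitinase gene Usp22 (1.02 ± 0.12) and Eny2 (0.51 ± 0.07), and 2 lower. Of 15 lipid droplet genes, which stand here for the pathway of Cidec, 7 were lower, such as Plin4 (-1.64 ± 0.25) and Abhd5 (-0.48 ± 0.13), and 1 higher. Of 6 Arp2/3 subunits 2 were higher, Arpc4 and Arpc5l (0.30 ± 0.08), and of 9 WAVE subunits 2 were higher and 1 lower. Of 9 CaM kinase cascade genes 1 was higher and 3 lower, led by Camk1d (-1.29 ± 0.19), and of 12 genes of the VHL ligase and HIF pathway 2 were higher, led by Eloc (0.44 ± 0.04), and 3 lower. The tubulin ligase list had 2 of 13 higher and 2 lower, the pseudouridine synthases 2 of 8 higher and 0 lower, and the neutrophil ER and granule list 2 of 10 higher, Hax1 and Jagn1, and 1 lower.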

How the data were processed

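RNA of homogenized colon was measured on 1 Affymetrix array per sample. The deposited values are intensities per probe set on a linear scale, in whole numbers. How the authors corrected background, normalized and summarized probes is not given in the sources used here. Of 45037 probe sets, 28898 had 1 gene symbol in the platform annotation and gave 17097 genes, each by its brightest probe set. Values were put on the scale log2(intensity + 1), quantile normalized over the table, and fitted with limma 3.58.1 in R 4.3.3 (1 mean per group, 8 groups, 36 arrays, variances moderated by an intensity trend). Benjamini-Hochberg adjustment ran separately for every comparison. An array has no read depth, and the number of arrays limits precision. The procedure was tested on simulated data.

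The members and lists were chosen with earlier results of these data known. Named were all neighbours, Il17rc, Il17re, up to 8 further genes past the threshold within 20 Mb, up to 2 genes per list and comparison, and the 3 genes most correlated with Creld1. Gene order and distances came from RefSeq GRCm38.p6. The build behind the probe annotation is not given in the sources used here. Equal replicate numbers showed correlated deviations in every pair between KO and WT of day 15 (0.174 to 0.801) and between WT of day 7 and untreated WT (0.164 to 0.398), and in no other comparison. The labels state no pairing. Alternatives are listed with their effects in the closing section.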

Additional observations from a re-analysis of the deposited data

Results flagged for a closer look

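Of 88 groups of arrays checked over the measured neighbours, Il17re and Il17rc, 9 had a highest or lowest array that stood apart from the rest of its group by Dixon's criterion, which chance alone meets in about 1 in 20 groups. For Camk1, WT untreated replicate 2 read 73 where the others read 50 to 52, and KO day 15 replicate 4 read 89 where the others read 50 to 55. Jagn1 read 284 on KO tumor replicate 1, against 323 to 338 on the others. Brk1 read 1241 on KO day 7 replicate 3, against 1351 to 1358. Ttll3 differed by a few intensity units near background, with 14 on KO untreated replicate 3 against 12, 12 on KO day 15 replicate 2 against 13, and 14 on WT tumor replicate 2 against 11 to 12. Il17rc read 331 on the array labelled KO day 7 replicate 1, against 10 to 44, and 223 on WT tumor replicate 6, against 76 to 115. None of the 8 groups of Creld1 had such an array.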

How the results depend on the processing

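The Creld1 difference over the stages passed the threshold under all 15 other settings run (-0.68 to -0.49, adjusted p 1.22e-07 to 0.00129), and no value for a listed neighbour, Il17re or Il17rc that passed the threshold changed direction. Counts of neighbours past the threshold at single stages moved by 1 or more. The untreated count of 1 became 0 with a pseudocount of 16, with no normalization between arrays, with the letter or the number of the title code as a block and without the 7 arrays with high Krt5. The day 7 count of 1 became 0 with arrays centred on the median, with no normalization, with only the groups compared, with the replicate block, with the letter or the number as a block, and without the 7 arrays with high Krt5 or the 2 KO arrays with high Il17rc, and it became 4 with array weights (Creld1, Jagn1, Camk1 and Arpc4). The day 15 count of 0 became 1 (Creld1) with dim genes left out, with the mean of all probe sets, without intensity trend and robust, with array weights and with quantile normalization over probe sets with 1 symbol. With array weights the tumor count became 1, the count for the mean of the stages 2 and the count for tumor against untreated 5. The day 7 against untreated count became 1 (Vhl) with dim genes left out, without intensity trend and robust, with array weights and without replicate 4 of both genotypes at day 15. Leaving out single arrays gave 0 to 1 untreated, at day 7, at day 15 and for day 7 against untreated, and 7 to 12 genes within 20 Mb. Without the 7 arrays with high Krt5, 5 genes within 10 Mb and 6 within 20 Mb passed. In the replicate block fit Creld1 had -0.66 over the stages (adjusted p = 0.000210), the untreated call held, and all genes past the threshold numbered 440, 22, 27, 6 and 256 for the 4 stages and their mean. The cause of these changes was not tested. Leaving out arrays by Krt5, by Il17rc, by Y-linked transcripts or at day 15, and the quantile normalization over probe sets with 1 symbol, were chosen after seeing the data. The fit of only the groups compared was not run for the mean of the stages and the interaction. Centring moved the share of higher calls over all genes from 76.3 to 91.8% at day 15 and from 44.3 to 17.1% for day 7 against untreated. Signals near background limit Ttll3, Mbd4, Prrt3, Fancd2 and Fancd2os, and Wnt5b on the KO arrays.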
